A study of Daphnia magna with 48 samples.

Results

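The 50 transcripts described here were those with the strongest joint increase after acute severe hypoxia (ASH) in normoxia-reared *Daphnia magna* of all 4 clones, and the question was how they behaved in *Daphnia* reared in chronic mild intermittent hypoxia (CMIH). Reads of the 3 replicates of a clone and treatment were pooled, and d was the log2 ratio of CPM (reads scaled by the total of the library) after ASH to CPM in controls, with 10 CPM added to both. Of 6050 transcripts in the deposited table, 2442 held at least 480 reads over the 48 samples, and 154 of these had d above 0 in every clone among normoxia-reared samples. The 50 with the highest mean d were kept after the globin transcripts 11F0.55, 3F39.53 and 35F4.44 had been left out. Another globin named in the rule, 0F43.50, held 220 reads and was not among the 154. Among transcripts that reached 480 reads, the members were thus chosen by d in normoxia-reared samples only, so their values there are a description. Every test below was run on the 24 CMIH-reared samples. Reads of these 24 samples counted towards the limit of 480 reads, whether after ASH or in controls. Their d had no part in the choice.

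Each sample was RNA from 2 whole females, 25 days old, pooled together, and every combination of clone, rearing and acute treatment had 3 samples. The CMIH-reared groups were FI, IL, GB and HU after ASH, 12 h in sealed flasks at an oxygen concentration of 1 mg/L or below, and the controls of the same clones without ASH. CMIH-reared tanks were repeatedly brought down to 4 mg/L and normoxia-reared tanks up to 8 mg/L, and oxygen drifted between adjustments in both. ASH was the same for both, whereas control flasks were held at either 4 or 8 mg/L, so that d was not set against the same control treatment in both rearing conditions. Clones FI (FI-FSP1-16-2) and IL (IL-M1-8) came from intermittent and GB (GB-EL75-69) and HU (HU-K-6) from permanent water bodies, so that 2 clones stood for each habitat type. The methods describe some controls frozen at the time of sampling and others kept for 12 h in flasks without food, and the labels do not say which kind a control sample was, so that time in the flask, feeding and ASH cannot be told apart. Pools of animals and not tanks were the replicates, and the p-values measure the spread between these pools. In the tests with clone as a covariate, that spread also includes differences between clones in the response to ASH.

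*Daphnia* are small planktonic crustaceans that live in ponds and lakes where oxygen can run low. In animal cells that sense low oxygen, prolyl hydroxylases cease to mark the hypoxia-inducible factor for destruction, and the factor then raises the transcription of its target genes. In *Daphnia* the best known of these are the hemoglobin genes, whose product is dissolved in the hemolymph and colours hypoxic animals red, and other known responses include glycolytic enzymes and the oxygen-sensing hydroxylases themselves. No description in the files, the paper or the gene table used could be matched to the identifier of any of the 50 members, and 0 of the 6050 identifiers were found in the gene table. They are therefore named by contig and gene number, and no function is given to any of them.

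Depth differed between treatments and clones, and this touches every count below. Total reads ranged from 32289 to 368131 (median 243963) in the 12 CMIH-reared samples after ASH and from 20474 to 381683 (median 101312) in the 12 CMIH-reared controls. The thinnest libraries were in FI and HU, where 1 read was worth the most CPM. In HU, 11 of the 50 members held under 10 reads in the 3 pooled CMIH-reared ASH samples, against 0 members in FI, IL and GB. The 4 treatments of a clone were spread over 3 replicate libraries, but library membership is not given in the labels, so no fit here has library as a block. Each clone had its own library preparations and sequencing runs, so that differences between clones cannot be told apart from differences between runs. Replicates differed by more than sampling noise in every group, the lowest mean chi-square per transcript between 2 replicates being 1.97, and no sample was counted as a copy of another.

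In the normoxia-reared samples that chose them, the members had a mean d over clones between 0.66 and 2.11, with a median of 0.89, against a median of -0.05 over the 2442 transcripts. FI contributed most to the choice, with a median d of 1.33 over the members, against 0.83 in GB, 0.80 in HU and 0.52 in IL. Just inside the limit of 50 lay 1F5.125, 21F15.20 and 0F72.87, whose mean d was 0.68, 0.67 and 0.66, and just outside lay 163F0.53, 13F14.71 and 18F7.132, whose mean d was 0.66, 0.65 and 0.64. The limit thus cut through a continuous run of values. In HU some of the choice rested on few reads, since 8 members had 0 reads in the pooled normoxia-reared HU controls and 11 had under 10 reads after ASH. Control reads were few in FI as well. Pooled normoxia-reared controls held a median of 6.5 reads per member in FI and 6 in HU, against 59 in GB and 128.5 in IL. At least 10 reads after ASH in every clone were held by 39 members.

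In the CMIH-reared samples, 11 of the 50 members rose with ASH at an adjusted p under 0.05 in edgeR's quasi-likelihood test with clone as a covariate, which is 22% of the members against 0.298% of all 6050 transcripts and 0.573% of the 2442. They were 1F26.8, 98F0.38, 16F2.79, 1F21.30, 26F14.45, 1F48.69, 1F52.43, 0F57.61, 0F57.62, 0F36.58 and 16F2.80. No member fell, against 2 of 6050 transcripts (0.0331%), and at an unadjusted p under 0.05 the counts were 22 members higher and 0 lower, against 3.01% higher and 1.11% lower over all transcripts. The log2 fold change was above 0 in 41 members, which is 82.0% against 57.3% of the 2442, and its median was 0.64 in the members and 0.04 over all transcripts. The other 7 transcripts that rose were 11F0.55, 3F39.53 and 35F4.44, the hemoglobin and cytoglobin precursors left out by the rule, and 4 with under 480 reads. DESeq2's likelihood ratio test called 17 members higher, the same 11 and a further 6, among 21 transcripts higher of 3341 given an adjusted p (0.629%), and it called 6 transcripts lower (0.180%), none of them a member. Leaving out GB left 3 calls (1F26.8, 98F0.38 and 16F2.79), leaving out FI left 7, and thinning all 24 libraries to the reads of the shallowest left 6.

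**Figure D1:**
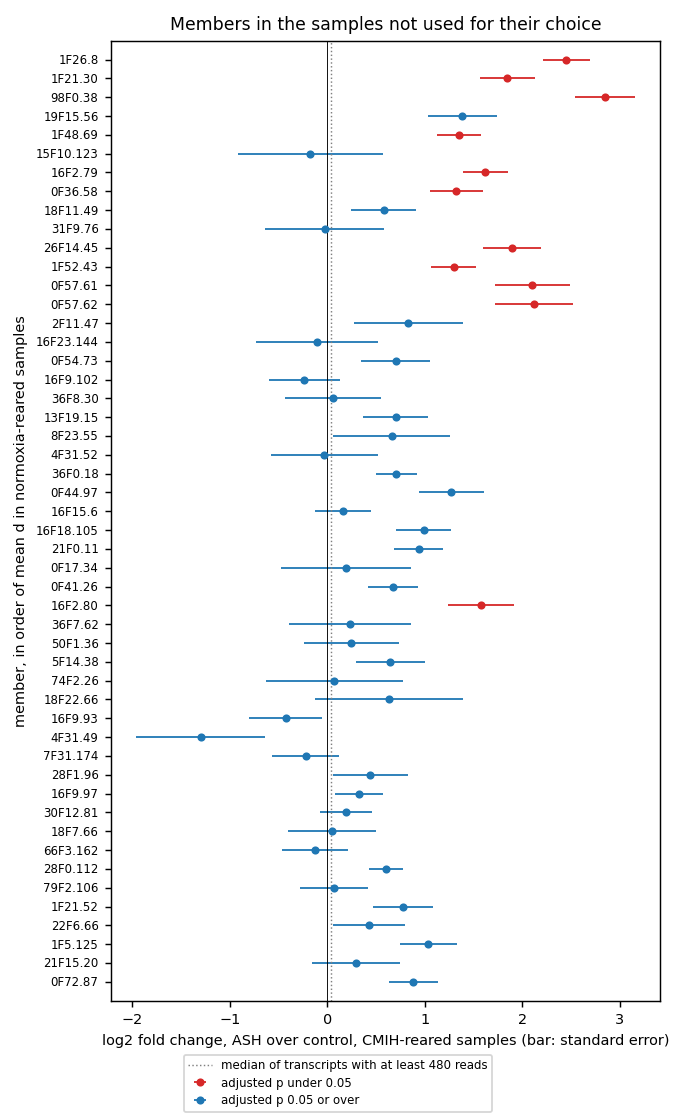
Log2 fold change of each member with ASH in CMIH-reared samples (x axis, ASH over control, edgeR with clone as a covariate; points are estimates and bars 1 standard error), with members ordered from top to bottom by their mean d in normoxia-reared samples (y axis). Red marks the 11 members with an adjusted p under 0.05 and blue the other 39; the dotted line is the median of the 2442 transcripts with at least 480 reads. Estimates run from 2.85 in 98F0.38 to -1.30 in 4F31.49, and 9 lie below 0.

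By mean d in normoxia-reared samples, which made the choice, the 11 members that rose stood at ranks 1, 2, 3, 5, 7, 8, 11, 12, 13, 14 and 30, given as a description. The mean d of the members in CMIH-reared samples ran between -1.39 and 2.39 with a median of 0.60, against a median of -0.02 over the 2442 transcripts. It lay below the mean d of normoxia-reared samples in 38 members and above it in 12, where the second count includes 1F26.8 and 98F0.38. Since the ranking was made on the first of these values, nothing is read from the count of 38.

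**Figure D2:**
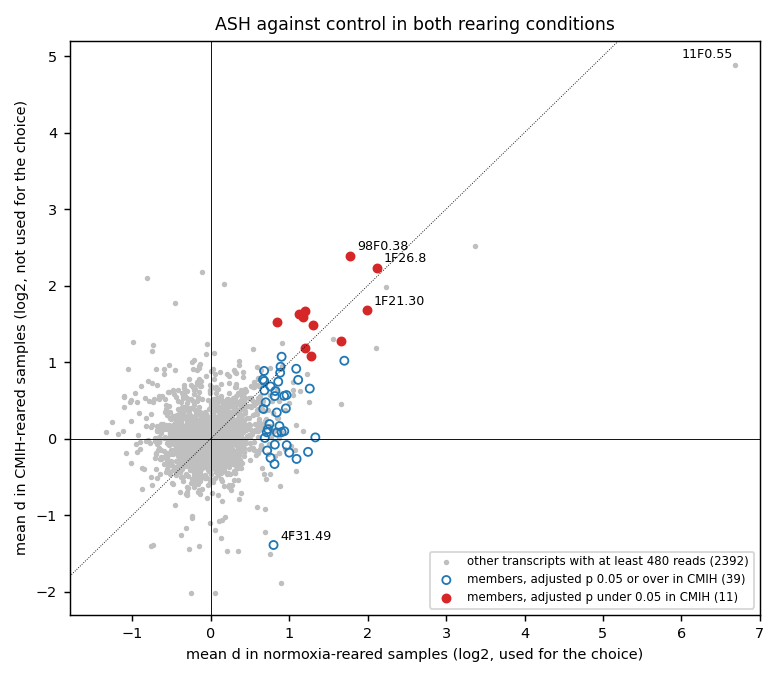
Mean d over the 4 clones in normoxia-reared samples (x axis, log2, used for the choice) and in CMIH-reared samples (y axis, log2, not used). Grey points are the other transcripts with at least 480 reads, among them the globin 11F0.55 at the upper right, blue circles the 39 members that did not pass the test in CMIH-reared samples, and red points the 11 that did; the dotted line marks equal values. The red points lie at a mean d in CMIH-reared samples of 1.08 and above, and 4F31.49 lies at -1.39.

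The lowest p among the members belonged to 1F26.8, a transcript of 2867 bases. In CMIH-reared samples after ASH it had 496, 336 and 456 CPM in FI, 147, 261 and 227 CPM in IL, 564, 523 and 632 CPM in GB and 244, 348 and 458 CPM in HU. The CMIH-reared controls had 22.8, 97.7 and 49.8 CPM in FI, 63.8, 69.0 and 57.6 CPM in IL, 122, 73.2 and 58.4 CPM in GB and 78.2, 107 and 30.2 CPM in HU. Every ASH sample lay above every control, across clones as well as within them. With ASH it rose by 2.45 on the log2 scale (standard error, SE, 0.24, edgeR adjusted p = 8.46e-07). Per length, its level was 136 ± 53.1 RPKM after ASH and 24.1 ± 10.2 RPKM in controls (SD, n = 12 each). Its d ranged from 1.62 in IL to 2.73 in FI among CMIH-reared samples, and from 1.93 in HU to 2.34 in IL among normoxia-reared ones.

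The largest log2 fold change among the members was that of 98F0.38 (4220 bases), at 2.85 (SE 0.31, edgeR adjusted p = 4.19e-06). After ASH it had 403, 162 and 169.5 CPM in FI, 98.0, 92.4 and 89.2 CPM in IL, 390.3, 342 and 352 CPM in GB and 127, 93.6 and 135 CPM in HU, all in CMIH-reared samples. Their controls had 0, 0 and 19.9 CPM in FI, 12.8, 7.26 and 26.2 CPM in IL, 41.9, 39.4 and 70.1 CPM in GB and 48.9, 15.3 and 0 CPM in HU. The ASH samples were above the controls in each clone without overlap, and the control values of 0 came from thin libraries of FI and HU. The transcript was detected at 48.4 ± 30.1 RPKM after ASH and 5.56 ± 5.31 RPKM in controls (SD, n = 12 each). These 2 transcripts, 1F26.8 and 98F0.38, were also the members that passed within single clones, both in FI and both in GB. Within FI, 7 of 6050 transcripts passed (0.116%), within GB 5 (0.0826%), within IL 2 (0.0331%, no member) and within HU 0, where 0 members had an adjusted p under 0.05 in the same edgeR fit.

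The shortest member was 1F21.30, with 435 bases. In CMIH-reared samples after ASH it had 279, 226 and 209 CPM in FI, 220.4, 231 and 159.8 CPM in IL, 624, 452 and 605 CPM in GB and 19.5, 53.5 and 26.9 CPM in HU. Controls had 45.7, 0 and 59.8 CPM in FI, 76.5, 105 and 78.6 CPM in IL, 206, 175 and 193 CPM in GB and 0 in each of the 3 HU samples. It was the third member whose ASH and control samples did not overlap in any clone. In HU the 8 reads after ASH, set against a floor of 3 reads over the control group, gave an increase of at least 2.48-fold. The floor covers counting error in the controls only, not that of the 8 reads after ASH. Over all clones the log2 fold change was 1.85 (SE 0.29, edgeR adjusted p = 0.00114). Its neighbour 1F21.52 had a log2 fold change of 0.78 (SE 0.31, edgeR adjusted p = 0.993), and the within-group deviations of the pair gave r = -0.35 over the 24 samples, as a description.

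**Figure D3:**
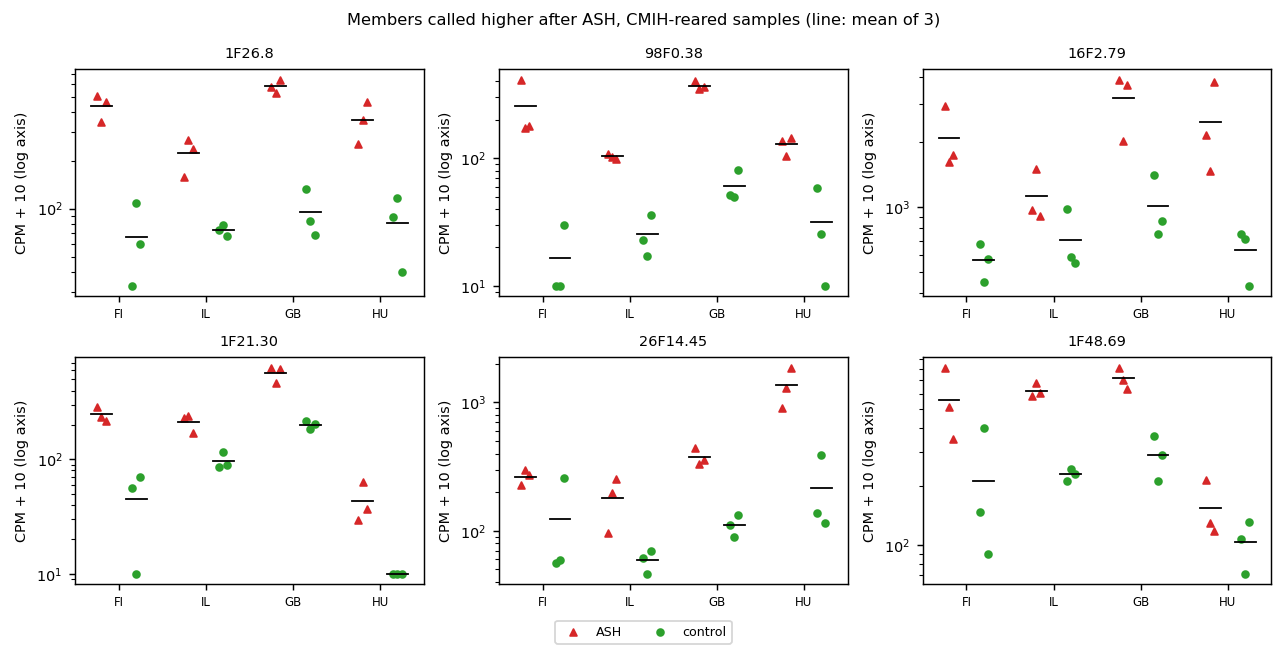
CPM of 6 of the members that rose, in each CMIH-reared sample (y axis, CPM + 10 on a log axis) by clone (x axis). Red triangles are ASH samples, green circles controls and lines the mean of 3. In 1F26.8, 98F0.38 and 1F21.30 the triangles lie above the circles in all 4 clones; in 16F2.79 this holds in FI, GB and HU, in 26F14.45 in IL, GB and HU and in 1F48.69 in IL and GB.

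The neighbouring transcripts 16F2.79 and 16F2.80, of 1177 and 1176 bases, rose together while differing in level. In CMIH-reared samples 16F2.79 had 2911, 1596 and 1721 CPM after ASH in FI, 958, 1483 and 899 CPM in IL, 3871, 2003 and 3664 CPM in GB and 2150.1, 1458 and 3757 CPM in HU. The controls had 662, 439.6 and 568 CPM in FI, 969, 577 and 539.7 CPM in IL, 1393, 743 and 853 CPM in GB and 743, 704 and 422 CPM in HU. Only in IL did ASH and control samples overlap. At 1874 ± 916 RPKM after ASH and 609.9 ± 226 RPKM in controls (SD, n = 12 each), 16F2.79 had the highest mean level per length among the members that rose, and its log2 fold change was 1.62 (SE 0.23, edgeR adjusted p = 4.46e-04). The level of 16F2.80 after ASH was 119.5 ± 64.8 RPKM (SD, n = 12), and its log2 fold change was 1.58 (SE 0.34, edgeR adjusted p = 0.0319). It too overlapped only in IL, where it had 101, 163 and 126 CPM after ASH and 115, 79.9 and 115 CPM in controls. In HU it had 29.3, 40.1 and 94.3 CPM after ASH and 0, 0 and 15.1 CPM in controls. The call of 16F2.80 was lost, with adjusted p from 0.0504 to 0.112, when any 1 of 12 samples was left out, namely ASH replicates 4 and 5 and control replicates 10, 11 and 12 of FI, ASH replicates 4, 5 and 6 and control replicates 11 and 12 of GB, and ASH replicate 3 and control replicate 9 of HU. The within-group deviations of 16F2.79 and 16F2.80 gave r = 0.29 over the 24 samples, as a description. Reads that map to either member of such a pair could have been divided between them by the counting, which was not tested.

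In 26F14.45 (2430 bases) the highest values came from HU. After ASH it had 899, 1284 and 1858 CPM in HU, 433, 320.2 and 344 CPM in GB, 85.7, 187 and 242 CPM in IL and 217, 285 and 261 CPM in FI, among CMIH-reared samples. The controls had 127, 382 and 106 CPM in HU, 101, 78.8 and 123 CPM in GB, 51.0, 36.3 and 60.3 CPM in IL and 45.7, 48.8 and 249 CPM in FI. One FI control reached into the range of the FI samples after ASH, and in the other clones the groups were apart. On the log2 scale the increase was 1.89 (SE 0.30, edgeR adjusted p = 0.00136). Its d was largest in HU in both rearing conditions, at 2.69 in CMIH-reared and 1.88 in normoxia-reared samples, and smallest in FI, at 0.65 and 0.53, but the test of a clone difference in CMIH-reared samples gave an unadjusted p of 0.313 in edgeR (adjusted p = 0.941).

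A pair of further contig 1 members, 1F48.69 and 1F52.43, rose by similar amounts. For 1F48.69 (1784 bases) the CMIH-reared samples after ASH had 805, 502 and 339 CPM in FI, 569, 668 and 595 CPM in IL, 805, 694 and 624 CPM in GB and 205, 120.4 and 108 CPM in HU. The controls had 137, 391 and 79.7 CPM in FI, 204, 236 and 223 CPM in IL, 353, 203 and 280.4 CPM in GB and 97.8, 61.2 and 121 CPM in HU. The groups were apart in IL and GB and overlapped in FI and HU, and the log2 fold change was 1.35 (SE 0.22, edgeR adjusted p = 0.00225). The level of 1F52.43 (2961 bases) was 144 ± 83.9 RPKM after ASH and 59.9 ± 22.4 RPKM in controls (SD, n = 12 each). Its log2 fold change was 1.30 (SE 0.23, edgeR adjusted p = 0.00575), with no overlap in GB, where it had 972, 495 and 545 CPM after ASH and 206, 197 and 204 CPM in controls, and in HU, where it had 313, 254 and 242 CPM after ASH and 117, 138 and 106 CPM in controls. Contig 1 carried 6 of the 50 members, 12% against 5.81% of the 2442 transcripts, and contigs 0 and 16 carried 8 each, 16% against 8.07% and 3.81%.

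The neighbours 0F57.61 and 0F57.62 had nearly the same reads in every sample, 3216 and 3150 in total with a summed difference of 72 reads, and should be read as 1 signal. In CMIH-reared samples 0F57.61 had 1053, 353 and 769 CPM after ASH in FI, 398, 641 and 829 CPM in IL, 1742, 1010.4 and 1288 CPM in GB and 39.1, 0 and 0 CPM in HU. The controls had 343, 48.8 and 59.8 CPM in FI, 89.3, 171 and 105 CPM in IL, 485, 208 and 350.5 CPM in GB and 19.6, 0 and 0 CPM in HU. The groups did not overlap in FI, IL and GB, and in HU the transcript was all but absent, its 6 reads lying in ASH replicate 1 and control replicate 7. Log2 fold changes were 2.10 (SE 0.39, edgeR adjusted p = 0.00903) for 0F57.61 and 2.12 (SE 0.40, edgeR adjusted p = 0.0112) for 0F57.62. In normoxia-reared samples the d of 0F57.61 was 2.57 in IL, 0.83 in FI, 0.72 in GB and 0.56 in HU, where 2 reads after ASH and 0 in controls placed it among the transcripts higher in all clones. Counting this pair once left 10 members that rose.

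The longest of the members that rose was 0F36.58, with 6471 bases and only 656 reads in all. After ASH the CMIH-reared samples had 92.9, 76.6 and 183 CPM in FI, 79.6, 65.2 and 78.0 CPM in IL, 245, 114 and 138 CPM in GB and 48.9, 66.9 and 162 CPM in HU. The controls had 91.3, 48.8 and 29.9 CPM in FI, 76.5, 36.3 and 34.1 CPM in IL, 66.3, 22.5 and 40.9 CPM in GB and 29.3, 30.6 and 60.3 CPM in HU. The means differed in the same direction in each clone, but only in GB were the 3 ASH samples above the 3 controls. Over the clones the estimate was a log2 fold change of 1.32 (SE 0.27, edgeR adjusted p = 0.0240). The adjusted p was 0.0537 without FI control replicate 12, 0.0651 without GB ASH replicate 4, 0.0675 and 0.0713 without GB control replicates 11 and 12, and 0.0507 without HU ASH replicate 3.

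Among the first 12 members by mean d, 4 did not pass in CMIH-reared samples. In 19F15.56 (rank 4 of the choice) the log2 fold change was 1.39 (SE 0.36, edgeR adjusted p = 0.157), and the DESeq2 test called it. Its GB samples had 202, 110.3 and 209 CPM after ASH and 31.4, 11.3 and 29.2 CPM in controls, without overlap, whereas in FI 186, 55.3 and 117 CPM after ASH lay across 45.7, 0 and 129.5 CPM in controls. For 18F11.49 (rank 9) the log2 fold change was 0.58 (SE 0.33, edgeR adjusted p = 1.00), with groups apart only in FI, at 124, 119 and 52.2 CPM after ASH and 0, 48.8 and 39.9 CPM in controls. In HU it held 0 reads in the 3 controls and at most 13.5 CPM after ASH, which is 1 read. The other 2, 15F10.123 and 31F9.76, had log2 fold changes near 0 and are described with the members below 0.

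Of the members that did not pass, 28F0.112 had the smallest spread within groups. It had 3747, 3699.6 and 3977 CPM after ASH and 1576, 2003 and 1734 CPM in controls of CMIH-reared FI. In IL it had 3881, 4151 and 3671 CPM after ASH and 1773, 3006 and 3448 CPM in controls, and in GB 3254, 3832 and 4237 CPM after ASH and 2694, 2342 and 2576 CPM in controls. The groups were apart in these 3 clones, while HU had 528, 388 and 337 CPM after ASH and 577, 413 and 347 CPM in controls. Over the clones its log2 fold change was 0.60 (SE 0.17, edgeR adjusted p = 0.286). It was named after its values were seen, as were 16F23.144, 2F11.47, 50F1.36, 8F23.55 and 74F2.26. The members just inside the limit had log2 fold changes of 1.04 (1F5.125, edgeR adjusted p = 0.262), 0.29 (21F15.20, adjusted p = 1.00) and 0.88 (0F72.87, adjusted p = 0.262), and those just outside 0.23 (163F0.53), -0.22 (13F14.71) and 0.14 (18F7.132), all with an adjusted p of 1.00.

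The log2 fold change was below 0 in 9 members, and none of these passed. The lowest was that of 4F31.49 (6383 bases), the member with the most reads, 52907 in all. In CMIH-reared GB it had 21.3, 836 and 43.5 CPM after ASH and 1462, 5945 and 4509 CPM in controls, and in FI 2478, 383 and 509 CPM after ASH and 2466, 5275 and 1863 CPM in controls. HU had 1299.8, 26753 and 18221 CPM after ASH and 12411, 33646 and 50226 CPM in controls, and IL 5715, 1584 and 12701 CPM after ASH and 3941, 5642 and 1098 CPM in controls. The ASH samples lay below the controls without overlap in GB only, and values within 1 group differed by more than 10-fold in GB and HU. edgeR gave a log2 fold change of -1.30 (SE 0.66, edgeR unadjusted p = 0.0617, adjusted p = 1.00). In the normoxia-reared samples that chose it, d was between 0.58 in GB and 1.05 in IL. Its neighbour 4F31.52 had a log2 fold change of -0.03 (SE 0.55, edgeR adjusted p = 1.00).

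On contig 16 the neighbours 16F9.93 and 16F9.102 varied together within groups (r = 0.91 over 24 samples, a description). After ASH, 16F9.93 had 478, 1032 and 1159 CPM in IL and 738, 893 and 968 CPM in GB, against 2015, 1358 and 1326 CPM in IL controls and 1208, 1604 and 2115 CPM in GB controls, all CMIH-reared. Both clones thus had lower values after ASH without overlap, while its normoxia-reared d was 0.29 in IL and 0.72 in GB. In edgeR the log2 fold change was -0.43 (SE 0.37, edgeR adjusted p = 1.00) for 16F9.93 and -0.23 (SE 0.36, edgeR adjusted p = 1.00) for 16F9.102. The third member of this run of genes, 16F9.97, had 0.33 (SE 0.25, edgeR adjusted p = 1.00) and did not vary with them (r = -0.11 and -0.15). For 7F31.174 the value was -0.22 (SE 0.34, edgeR adjusted p = 1.00), with overlap in every clone.

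The transcripts 31F9.76 and 16F23.144 lie on different contigs, have 681 and 690 bases, and shared nearly all their counts (2660 and 2914 reads, summed difference 260), so that reads of one cannot be told apart from reads of the other. In CMIH-reared samples 31F9.76 had 403, 400.2 and 274 CPM after ASH in FI, 269, 65.2 and 535 CPM in IL, 429, 978 and 67.2 CPM in GB and 264, 0 and 26.9 CPM in HU. The controls had 297, 147 and 129.5 CPM in FI, 408, 327 and 514 CPM in IL, 722, 113 and 123 CPM in GB and 733, 15.3 and 0 CPM in HU. The spread among replicates covered the groups in GB and HU, and log2 fold changes were -0.03 (SE 0.61, edgeR adjusted p = 1.00) for 31F9.76 and -0.10 (SE 0.63, edgeR adjusted p = 1.00) for 16F23.144. For 15F10.123, which ranked 6th in the choice through a d of 3.74 in FI, the log2 fold change was -0.18 (SE 0.74, edgeR adjusted p = 1.00). That transcript held 1 read in the pooled normoxia-reared FI controls and 76 after ASH, 68 of them in replicate 1. Its 3 CMIH-reared HU samples had 0, 13.4 and 229 CPM after ASH and 68.5, 229 and 211 CPM in controls.

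**Figure D4:**
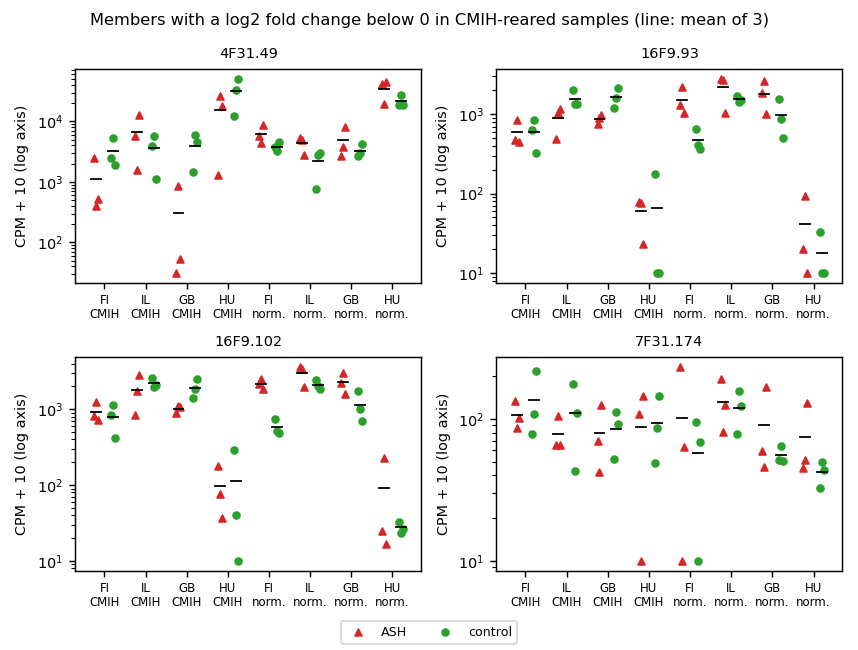
CPM of the 4 members with the lowest log2 fold change in CMIH-reared samples (y axis, CPM + 10 on a log axis), by clone and rearing (x axis, CMIH left, normoxia right, marked norm.). Red triangles are ASH samples, green circles controls and lines the mean of 3. Normoxia-reared values chose the members and are shown as a description; 4F31.49 in CMIH-reared GB has all ASH samples (21.3 to 836 CPM) below all controls (1462 to 5945 CPM).

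Clone by clone, d in CMIH-reared samples was above 0 in 39 members in FI (51.6% of the 2442 transcripts), 36 in GB (43.4%), 34 in HU (45.0%) and 32 in IL (51.9%). It was above 0 in all 4 clones in 19 members, which is 38.0% against 5.00% of the 2442, in 3 clones in 10, in 2 clones in 14 and in 1 clone in 7 (3 or 4 clones 29 members, 24.9% of the 2442), and in no member was it at or below 0 everywhere. All 11 members that rose, called on the same samples, were among the 19. Thinned to equal depth, 13 members and 99 of the 2442 transcripts had d above 0 in all 4 clones. The median d of the members was highest in FI at 1.05, with 0.62 for HU, 0.46 for GB and 0.33 for IL.

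The 3 ASH samples lay above the 3 controls without overlap in 20 members in GB, 18 in FI, 11 in IL and 9 in HU. Over the 2442 transcripts the shares were 4.38% in GB, 9.17% in FI, 4.91% in IL and 5.04% in HU. The reverse order was seen in 4 members in GB, 2 in IL and 0 in FI and HU, where the shares of all were 5.16%, 6.31%, 10.2% and 3.44%. At least 1 clone showed ASH samples above controls in 28 members (20.5% of the 2442). In 3 or 4 clones the ASH samples stood above in 8 members (0.532% of the 2442), namely 1F26.8, 98F0.38, 1F21.30, 16F2.79, 16F2.80, 26F14.45, 0F57.61 and 28F0.112. In all 4 it was the first 3 of these (0.205% of the 2442).

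**Figure D5:**
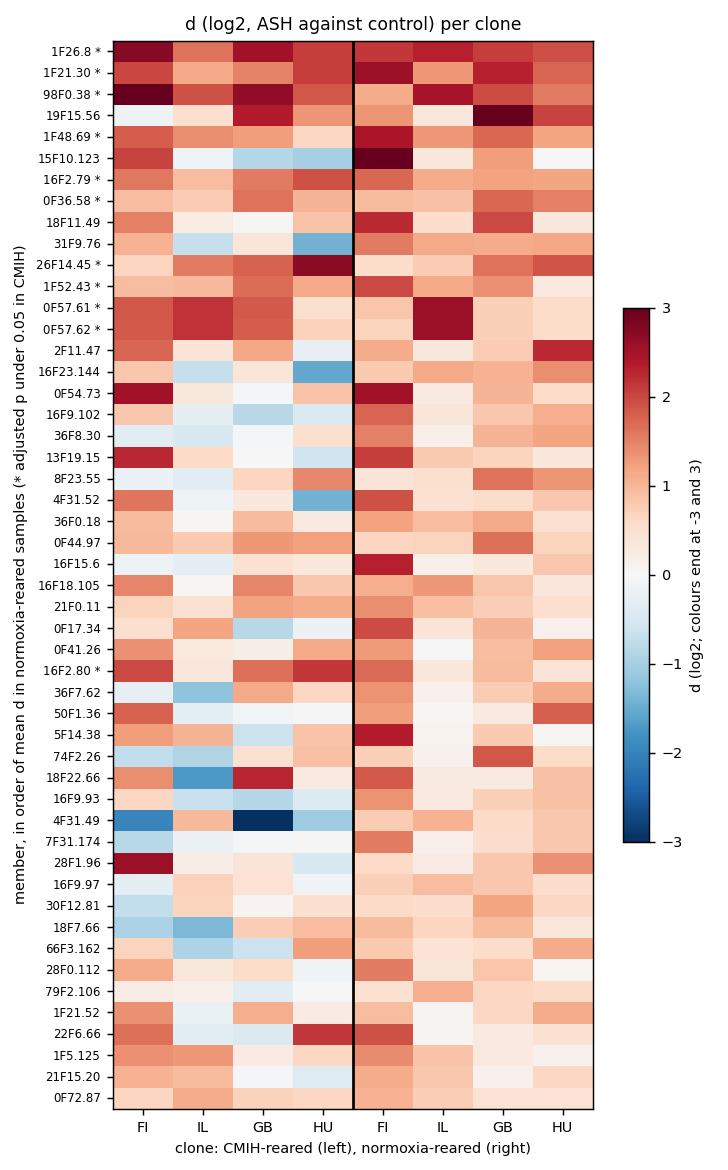
The d of each member (rows, ordered by mean d in normoxia-reared samples) per clone, with CMIH-reared samples in the 4 left columns and normoxia-reared samples in the 4 right columns. Red is higher after ASH and blue lower, on a log2 scale with colours ending at -3 and 3, and asterisks mark the 11 members with an adjusted p under 0.05. The right side holds no value at or below 0 because the rule required it, and on the left side 19 rows have d above 0 in all 4 clones.

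The effect of ASH was not shown to differ between clones for any member. The clone by ASH interaction passed in 0 of 6050 transcripts in edgeR, with 357 (5.90%) at an unadjusted p under 0.05, 9 members among them, and the contrast of FI and IL with GB and HU in 0, with 367 (6.07%), 4 members among them. The lowest unadjusted p of the interaction was 0.00445 (edgeR adjusted p = 0.744), for 13F19.15 (4533 bases). In CMIH-reared FI it had 279, 324 and 248 CPM after ASH and 22.8, 97.7 and 59.8 CPM in controls, in GB 167, 199 and 245 CPM after ASH and 154, 248 and 234 CPM in controls, and in HU 9.77, 0 and 13.5 CPM after ASH and 19.6, 30.6 and 0 CPM in controls. The groups stood apart in FI alone, with a d of 2.27 there against 0.59 in IL, 0.01 in GB and -0.59 in HU. Normoxia-reared d, which made the choice and is given as a description, ran in the same order from 2.09 in FI to 0.32 in HU. The HU value rested on 4 reads after ASH and 1 in controls. The ASH effect of FI and IL minus that of GB and HU was 2.06 on the log2 scale (SE 0.60, edgeR unadjusted p = 0.00265, adjusted p = 0.794). In CMIH-reared HU this transcript held 2 reads after ASH and 4 in controls.

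Next in the interaction came 22F6.66 (edgeR unadjusted p = 0.00583), 66F3.162 (0.00957), 0F54.73 (0.00965) and 16F18.105 (0.0100), each with an adjusted p of 0.744. In 66F3.162 the CMIH-reared IL samples had 178, 429 and 353 CPM after ASH and 714, 581 and 642 CPM in controls, and the HU samples 39.1, 13.4 and 13.5 CPM after ASH and 9.78, 0 and 0 CPM in controls. ASH samples were thus below the controls in IL and above them in HU, where no sample held more than 4 reads. The d of 22F6.66 was 1.65 in FI and 2.11 in HU, against -0.33 in IL and -0.43 in GB, and that of 0F54.73 was 2.51 in FI and 0.84 in HU, against 0.33 in IL and -0.04 in GB. For 16F18.105, d was 1.47 in GB, 1.46 in FI, 0.80 in HU and 0.03 in IL, and over the clones its log2 fold change was 0.99 (SE 0.28, edgeR adjusted p = 0.270).

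Summed over members, the increase was carried unevenly. With 0F57.61 and 0F57.62 counted once, the members that rose held 3989 to 7247 CPM after ASH and 1265 to 1621 CPM in controls of CMIH-reared FI. In IL they held 3058 to 4058 CPM after ASH and 1389 to 1913 CPM in controls. In GB the sums were 6119 to 9963 CPM after ASH and 1773 to 3075 CPM in controls. In HU they were 3719 to 6841 CPM after ASH and 859 to 1438 CPM in controls, and in no clone did the groups overlap. These members were called higher in the same CMIH-reared samples, so nothing is read from this lack of overlap. All 50 members, near-identical ones included, held a median of 28461 CPM (11620 to 35754) in the 12 ASH samples and 22310.3 CPM (11059 to 53785) in the 12 controls, but in HU the order was the reverse, with medians of 29668 CPM after ASH and 37944 CPM in controls. Without 4F31.49 the medians were 10320.4 CPM after ASH and 4298 CPM in controls in HU, and 21973 CPM after ASH and 14523 CPM in controls over all clones. The highest total was a control of HU, in which 4F31.49 alone held 50226 CPM. In the bulk of a whole animal, fewer cells of a kind and less RNA per cell cannot be told apart.

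The members were not unusual in length, at 435 to 11714 bases with a median of 2409.5, against 2189.5 over the 2442 transcripts. They held 517 to 52907 reads with a median of 1406.5, against 1043. Within groups of CMIH-reared samples they varied more, with a median SD of log2(CPM + 10) of 0.86 (0.27 to 1.94) against 0.61 over the 2442, and 35 of the 50 lay above the median of the 2442. This SD was 0.58 at the median among the 11 that rose and 0.95 among the other 39. The test that called the 11 depends on the spread in the same samples, so nothing is read from this difference. The members did not vary as 1 block, since the median correlation of within-group deviations over 1225 pairs was 0.03 and 5 pairs were above 0.9. Besides the pairs already described, 8F23.55 and 74F2.26 had r = 0.93, and 2F11.47 and 50F1.36 had r = 0.92, each over 24 samples and as a description. In HU the first of these last 2, 2F11.47, had 362, 0 and 0 CPM after ASH and 401, 0 and 0 CPM in controls, again with reads in ASH replicate 1 and control replicate 7 only. Leaving out either of these samples left 11 members that rose, the same as before.

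The levels of the members under the rearing conditions were compared as a description, since normoxia-reared samples had chosen them. In controls the mean over clones was higher in CMIH-reared than in normoxia-reared samples in 37 members, where 48.4% of the 2442 transcripts were, and the median difference was 0.28 on the log2 scale. After ASH it was higher in 20 members, where 53.8% of the 2442 were, with a median difference of -0.07. Among controls 11 members were higher in CMIH-reared samples in every clone and 4 lower, and after ASH 3 were higher and 6 lower. In 98F0.38 the difference was -0.59 in controls and 0.03 after ASH, in 1F26.8 -0.16 and -0.03, and in 4F31.49 0.19 and -2.00. The rule favours transcripts that were low in normoxia-reared controls and high in normoxia-reared ASH samples, and nothing is read from these counts.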

How the data were processed

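Nanopore cDNA sequencing gave read numbers for 48 samples. The authors basecalled, filtered, demultiplexed and mapped reads with Guppy 3.6 to the longest isoforms of the *D. magna* reference transcriptome 3.0, kept transcripts with at least 72 reads and deposited raw read counts. The deposited RPKM values are those counts scaled by transcript length and the total reads of the sample, and were used for levels only. The submitters' processing notes also name SAMtools.

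Samples were grouped by their labels. Counts of the 24 CMIH-reared samples were fitted for all 6050 transcripts with the quasi-likelihood F test of edgeR 4.0.16 under R 4.3.3, with TMM factors and clone as a covariate, and p-values were adjusted by Benjamini-Hochberg with a threshold of 0.05. Per-clone effects, the clone by ASH interaction and the habitat contrast came from 1 fit of 8 group means. Standard errors were taken as the size of the fold change over the square root of F. Alternatives were DESeq2 1.42.0, other normalizations and filters, robust dispersions, thinning to 20474 reads, and leaving out each sample or clone. The scripts were tested on simulated data.

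The members, lists and tests were chosen with earlier results of these data known. Named were the first 12 members by mean d, the 10 with the lowest p, the 5 with the lowest p for a clone difference, the 5 lowest effects below 0, 3 on each side of the limit, and neighbours on a contig. Libraries of 16894 to 408355 reads set the precision, and floors cover only the counting error of the group at 0 reads. No sequence was printed, since none was at hand for these identifiers.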

Additional observations from a re-analysis of the deposited data

How the results depend on the processing

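The 11 members that rose were called by every normalization and filter tried in edgeR (TMMwsp, DESeq2 size factors, library size alone, at least 480 reads, robust dispersions, without the 10 most abundant transcripts), and no member was called lower under any alternative. Members called higher numbered 17 with DESeq2's likelihood ratio test, 6 after thinning to equal depth, 7 without FI and 3 without GB, 8 each without HU or IL, 10 with 1 of each pair of nearly identical members (chosen after seeing the data), and 9 to 12 with 1 sample left out. Over all transcripts, called higher were 8 after thinning, 10 without FI, 5 without GB, 10 without HU and 11 to 18 with 1 sample left out, against 18, and called lower 6 with DESeq2, 1 with at least 480 reads, 0 without FI, GB or HU, 1 without IL and 1 to 3 with 1 sample left out, against 2. The cause was not tested, beyond the fewer reads or samples of those fits. No paired analysis was possible because ASH and control samples of a clone share no replicate number in the labels, and membership of a replicate library, named in the methods as a possible block, is not given there.

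Log2 fold changes that changed sign ran from -0.73 to 0.68 over the settings and never passed. With 1 sample left out, 31F9.76 ran from -0.33 to 0.68, 16F23.144 from -0.41 to 0.60, 15F10.123 from -0.73 to 0.23, 4F31.52 from -0.32 to 0.17, 16F9.102 from -0.38 to 0.077, 13F14.71 from -0.47 to 0.0015 and 18F7.132 from -0.064 to 0.41. After thinning, 15F10.123 was at 0.055, 31F9.76 at 0.069 and 13F14.71 at 0.24, and with DESeq2 4F31.52 was at 0.047. Without FI, 163F0.53 was at -0.17. Without GB, 15F10.123 was at 0.18, 66F3.162 at 0.070, 16F9.102 at 0.0032 and 13F14.71 at 0.53. Without HU, 15F10.123 was at 0.11, 31F9.76 at 0.36, 4F31.52 at 0.50 and 16F23.144 at 0.30. Without IL, 31F9.76 was at 0.18, 66F3.162 at 0.25, 4F31.52 at 0.042 and 16F23.144 at 0.061. Of the 50 members, 38 were chosen again from mean CPM or with a pseudocount of 1, and 45 with a pseudocount of 50.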
